A study of Homo sapiens with 9 samples.

Results

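The genes described here are 10 nuclear genes, out of 22290 genes with values. The products of most switch on mitochondrial genes or copy and transcribe mitochondrial DNA (mtDNA). The 10 genes were chosen by name. They are the coactivator gene PPARGC1B and the transcription factor genes NRF1, GABPA and ESRRA. The mtDNA transcription genes are TFAM, TFB2M and POLRMT, and the mtDNA replication genes are TWNK and POLG. TFB1M, related to TFB2M, encodes a methyltransferase of ribosomal RNA. All 10 had a value in every library.

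RNA was sequenced from cultured human cells labelled IMR-32, an established neuroblastoma line. The culture methods of the authors name no drug treatment of these cells. The parental cells (PAR, genotype WT) gave 3 libraries, and so did a line with the label knockdown of TRAP-1 (KD) and a line with the label overexpression (OE). TRAP-1 is the mitochondrial member of the Hsp90 chaperone family. The KD and OE cells were lines made earlier by the authors, and whether each is a single clone, and which vector it carries, is not given in the sources used here. The values are regularized log2 values (rlog), which the authors scaled for library size and shrank toward the mean of each gene, so that differences between groups are understated. The authors state a nominal sequencing depth, but the depth of each library cannot be read from these values. A difference was called at an adjusted p under 0.05 in limma, adjusted over all genes.

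TRAP1, the targeted gene, was at 10.67, 10.66 and 10.65 in the parental libraries, at 10.79, 10.79 and 10.83 in the libraries labelled KD, and at 10.67, 10.63 and 10.74 in the libraries labelled OE. All 3 libraries labelled KD thus lay above all parental libraries, by 0.14 (standard error 0.025, limma adjusted p = 1.8e-05), and the libraries labelled OE overlapped the parental ones (difference 0.018, with a 95% confidence interval -0.033 to 0.069, adjusted p = 0.643 from limma). The OE difference was -0.012 without OE replicate 3, and 0.060 and called when the median of its 20-Mb block was subtracted (adjusted p = 0.0496 from limma). Compared directly, TRAP1 was lower in OE than in KD by a log2 difference of -0.12 (adjusted p = 1.5e-04 from limma). TRAP1 shares 28.5% of its exonic bases with other annotated genes, chiefly DNASE1 on the opposite strand, which was higher by 0.16 in KD (adjusted p = 9.6e-04 from limma) and differed by -0.056 in OE (adjusted p = 0.316 from limma), and the part of DNASE1 reads in the TRAP1 value was not tested. TRAP1 RNA was thus higher, not lower, under the KD label. Under the OE label it overlapped the parental values, and a rise was called only after subtraction of the block median. KD and OE therefore stand below for the labels of the libraries and carry no direction of TRAP-1.

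The defining markers of the labelled cell type had mixed levels. Of 11 genes listed for noradrenergic neuroblastoma 8 had values, and 3 of these had a mean rlog under 3: PHOX2A, MYCN and TH, with parental means of 1.33, 2.52 and 2.84. This list is shorter than planned and was cut after its values were seen. MYCN is amplified in IMR-32, and the authors state that their line was authenticated, a record that was not seen here. The low MYCN value is at odds with the label, and the identity of the cells was not tested. COX6A1 and FEN1, from the lists of NRF1 or GABP targets and of mtDNA replication below, also had low parental means, at 2.39 and 2.99. Whether values this low reflect low expression in these cells was not tested. CHGA was at 4.07, CHGB at 5.87, HAND2 at 6.36, GATA3 at 7.25 and ISL1, the most abundant, at 9.37. DBH, DDC and STMN2 were not analysed here. Of 10 listed mesenchymal genes 9 had values, which ran in the parental libraries from 15.72 for VIM, 14.80 for WWTR1, 12.83 for YAP1 and 11.70 for PRRX1 to 4.21 for COL1A1, 1.35 for COL1A2 and 1.16 for COL3A1, and of 11 listed epithelial genes KRT18 was the most abundant (12.06) while EPCAM was at 2.59.

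Mitochondria carry a small circular genome that encodes a few subunits of the respiratory chain, and nearly every other mitochondrial protein is encoded in the nucleus. Coactivators of the PGC-1 family, such as the product of PPARGC1B, have no DNA-binding domain of their own and work through factors such as NRF1, the GABP complex and the estrogen-related receptors at the promoters of nuclear genes for respiration and for mtDNA upkeep. Inside the organelle, TFAM packages mtDNA and, with TFB2M and the polymerase POLRMT, starts its transcription, while the helicase Twinkle (TWNK) and polymerase gamma (POLG) replicate it.

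In KD against parental, 7 of the 10 genes were called, 2 higher and 5 lower, where 53.7% of all genes were called in either direction, 26.9% higher and 26.9% lower. Members had mean rlog values over 8, and of the 9956 genes at or above that level 75.8% were called, so that the share among the members lay near the background. In OE against parental, 5 of the 10 were called, 1 higher and 4 lower, beside 34.8% of all genes (16.9% higher and 18.0% lower) and 56.7% of the genes at a mean rlog of 8 or more. Without PAR replicate 2, and with library medians subtracted, the OE count was 8. Between OE and KD, 7 were called, 4 higher and 3 lower in OE, beside 47.3% of all genes (23.5% higher and 23.8% lower) and 68.3% of those at a mean rlog of 8 or more. The KD and OE comparisons share the same parental libraries, and replicates are not stated to come from separate cultures, so the p-values measure the spread between these samples, which may be technical.

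The members did not move one way. The median difference over the 10 genes was -0.059 in KD, from -0.52 for PPARGC1B to 0.31 for TFB1M, against -0.00051 over all genes. In OE it was -0.054, from -0.27 for PPARGC1B to 0.10 for TFB1M, against 0.00039 over all genes. PPARGC1B, TFB2M and TWNK were called lower, and TFB1M higher, in both comparisons.

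**Figure D1:**
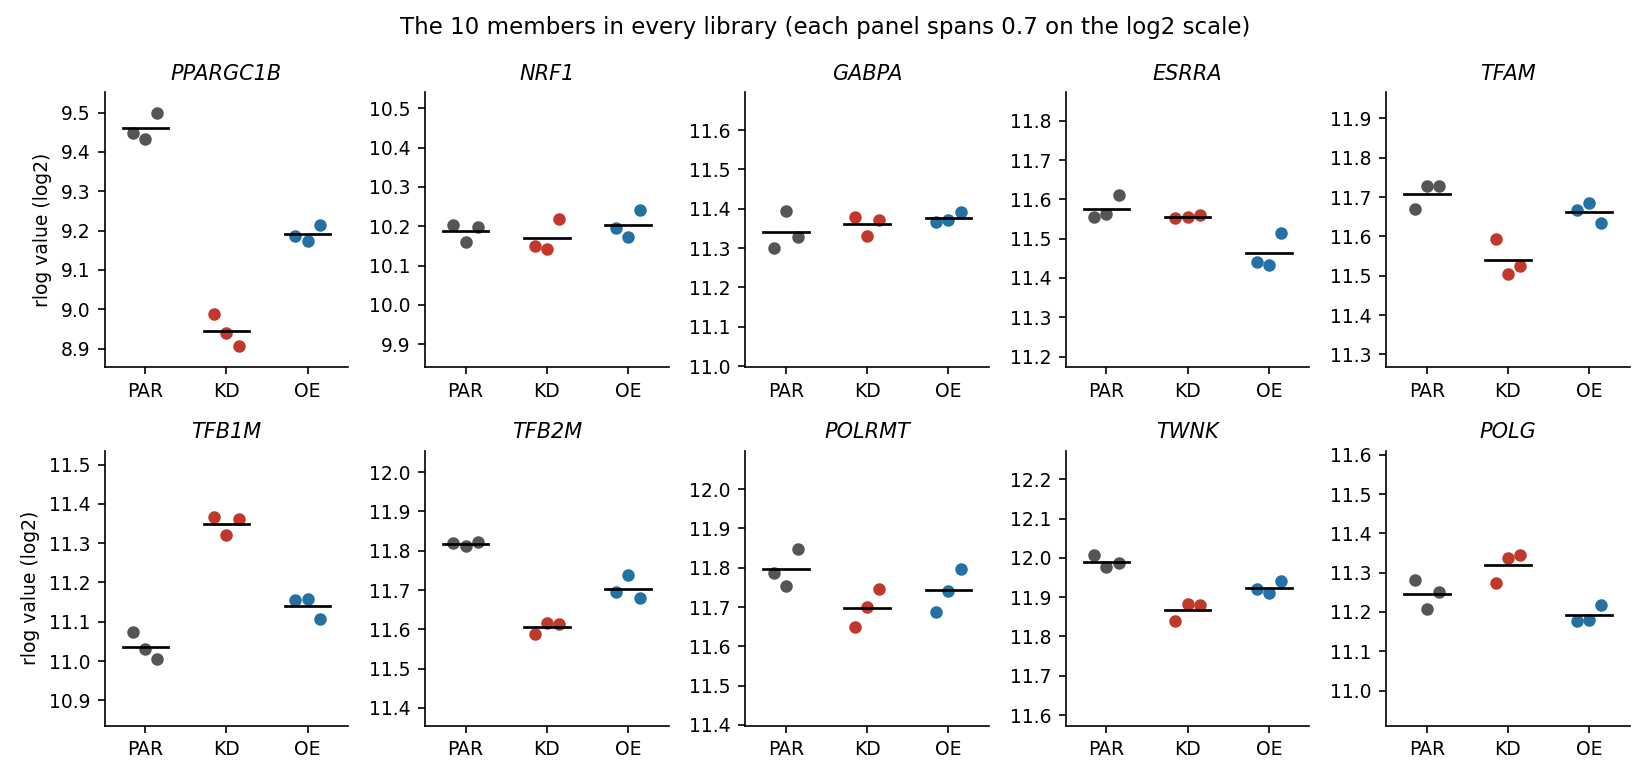
Value of each of the 10 members in every library, as rlog on a log2 scale; dots are libraries, 3 in each of PAR, KD and OE, black bars are group means, and every panel spans the same distance on the log2 axis. PPARGC1B falls from a mean of 9.46 in PAR to 9.19 in OE and 8.94 in KD without overlap, TFB1M has the opposite order, and the NRF1 and GABPA values overlap in all groups.

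PPARGC1B (ENSG00000155846, chromosome 5 from 149730298 to 149855022 on the plus strand of GRCh38) encodes PGC-1beta, a coactivator of genes for respiration. Its rlog value was 9.45, 9.43 and 9.50 in the parental libraries, 8.99, 8.94 and 8.91 in the KD libraries and 9.19, 9.17 and 9.21 in the OE libraries. The 3 groups were fully apart, with PAR highest, OE between and KD lowest. PPARGC1B fell by 0.52 in KD (standard error 0.032, limma adjusted p = 2.2e-15) and by 0.27 in OE (limma adjusted p = 2.5e-08), and OE was above KD by 0.25 (adjusted p = 6.5e-08 from limma). It was the only member whose difference exceeded 0.5, in KD, and it shares no exonic base with another annotated gene. In RNA from bulk cultures, fewer cells that express the gene and less of its RNA in each cell cannot be told apart.

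Of the other coactivator genes of the family, PPARGC1A moved opposite to PPARGC1B and PPRC1 in the same direction. PPARGC1A, which encodes PGC-1alpha, was at 7.26, 7.29 and 7.26 in the parental libraries, at 7.89, 7.88 and 7.90 in KD and at 7.43, 7.55 and 7.45 in OE. It was higher in every KD and OE library than in any parental one, by 0.62 in KD (standard error 0.041, limma adjusted p = 1.3e-14) and by 0.21 in OE (adjusted p = 1.3e-04 from limma). PPRC1, the related coactivator gene, fell in all KD and OE libraries, by -0.19 in KD (adjusted p = 3.2e-11 from limma) and by -0.23 in OE (adjusted p = 1.8e-12 from limma). Taken within each library, the rlog value of PPARGC1A minus that of PPARGC1B was -2.19 ± 0.046 (SD, n = 3) in PAR, -1.05 ± 0.050 in KD and -1.72 ± 0.077 in OE. The 3 groups did not overlap on this difference, and each pair of groups gave a two-sided exact permutation p of 0.1, the smallest that 3 against 3 libraries allow.

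Of the genes with a symbol and a mean rlog of 8 or more, those with the pattern most like PPARGC1B over the 9 libraries were ENC1 (Pearson r 0.996), CDK12 (0.995) and PSMD11 (0.995). These coefficients describe the order of 3 separate groups of libraries, and 27 of 9781 such genes had an r over 0.99. ENC1 differed from parental by -0.43 in KD and -0.22 in OE.

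NRF1 (ENSG00000106459, chromosome 7 from 129611720 to 129757082, plus strand), which encodes nuclear respiratory factor 1 and not the antioxidant factor of similar name, differed between no groups. Its mean was 10.19 ± 0.024 (SD, n = 3) in PAR, 10.17 ± 0.042 in KD and 10.20 ± 0.035 in OE. The differences from parental were -0.017 in KD (95% confidence interval -0.073 to 0.038, adjusted p = 0.627 from limma) and 0.017 in OE (-0.039 to 0.072, adjusted p = 0.692 from limma). The KD value was -0.041 without KD replicate 3 and -0.0032 without KD replicate 2, neither called. The OE value was -0.0023 without OE replicate 3.

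GABPA (ENSG00000154727, chromosome 21 from 25734570 to 25772460, plus strand) encodes the DNA-binding subunit of the GABP complex and also overlapped in all groups. Its differences from parental were 0.019 in KD (95% confidence interval -0.027 to 0.066, adjusted p = 0.498 from limma) and 0.036 in OE (-0.0097 to 0.082, adjusted p = 0.235 from limma). Without PAR replicate 1 the KD difference was -0.00052, and without PAR replicate 2 the OE difference was 0.063 and called (adjusted p = 0.0375 from limma), while without PAR replicate 1 the OE difference was 0.016 (adjusted p = 0.681). GABPA has 1 annotated pseudogene and shares 12.1% of its exonic bases with ATP5PF on the opposite strand. ATP5PF differed by -0.050 in KD (adjusted p = 0.0373 from limma) and by 0.0039 in OE (adjusted p = 0.912). The part of ATP5PF reads in the GABPA value was not tested. Of the genes for the partner subunits in the GABP complex, GABPB2 fell by 0.42 in KD (adjusted p = 4.1e-13 from limma), with all KD libraries below all parental ones. GABPB1 was lower by a log2 difference of -0.066 in KD (adjusted p = 0.0281 from limma), a call lost without PAR replicate 1 (-0.057, adjusted p = 0.0967), PAR replicate 2 (-0.067, 0.0530), KD replicate 1 (-0.067, 0.0510) or KD replicate 3 (-0.049, 0.148), and with 20-Mb block medians subtracted (-0.053, 0.0629).

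ESRRA (ENSG00000173153, chromosome 11 from 64305497 to 64316743, plus strand), which encodes estrogen-related receptor alpha, was the transcription factor gene that differed in OE. Its rlog value was 11.55, 11.56 and 11.61 in the parental libraries, 11.55, 11.56 and 11.56 in KD and 11.44, 11.43 and 11.51 in OE. The OE libraries lay below all others, and KD and PAR overlapped. The difference from parental was -0.11 in OE (standard error 0.022, limma adjusted p = 8.3e-05) and -0.020 in KD (95% confidence interval -0.065 to 0.024, adjusted p = 0.458 from limma), and OE was below KD by a log2 difference of -0.094 (adjusted p = 5.8e-04 from limma). With 20-Mb block medians subtracted the last value was -0.049 (adjusted p = 0.0444 from limma). The KD difference from parental was -0.0027 without PAR replicate 3 and -0.031 without PAR replicate 1, neither called. ESRRA has 2 annotated pseudogenes and shares 9.16% of its exonic bases with TRMT112 on the opposite strand. TRMT112 was higher by 0.087 in KD (adjusted p = 2.4e-05 from limma) and differed by -0.024 in OE (adjusted p = 0.271). The part of TRMT112 reads in the ESRRA value was not tested.

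**Figure D2:**
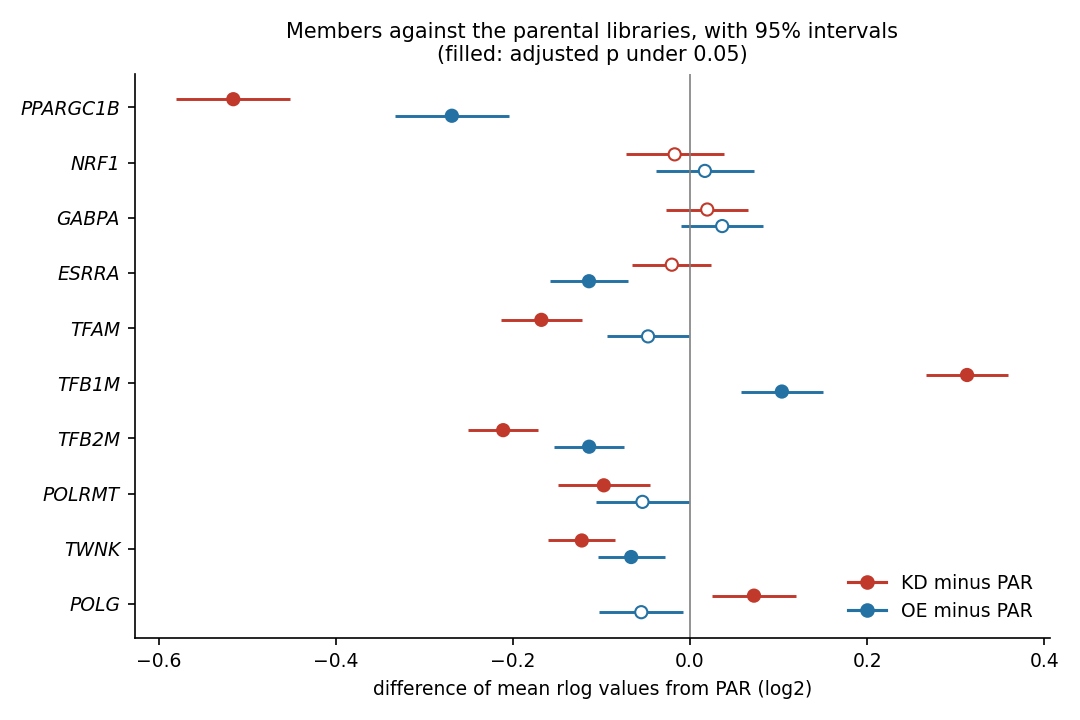
Difference of mean rlog values (log2) of each member from the parental libraries, KD in red and OE in blue, with 95% confidence intervals from limma; filled dots have an adjusted p under 0.05. PPARGC1B lies farthest below 0 in both comparisons and TFB1M farthest above, at -0.52 and 0.31 in KD.

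TFB1M moved opposite to the mtDNA transcription genes TFAM, TFB2M and POLRMT in KD, and to TFB2M in OE. Promoter sequences of TFB1M, TFB2M and POLRMT are shown because these are the members that hold a core motif of NRF1, and TFB1M moved opposite to the other 2 in KD and to TFB2M in OE. They are the 250 bases before the start of each gene in RefSeq (GRCh38.p14), read 5′ to 3′ on the minus strand, from chr6:155314485-155314734 for TFB1M, chr1:246566262-246566511 for TFB2M and chr19:633538-633787 for POLRMT. Capitals mark CGCATGCG, the NRF1 core, which reads the same on both strands, and CTTCCGG, the reverse complement of the GABP (ETS) core CCGGAAG.
TFB1M: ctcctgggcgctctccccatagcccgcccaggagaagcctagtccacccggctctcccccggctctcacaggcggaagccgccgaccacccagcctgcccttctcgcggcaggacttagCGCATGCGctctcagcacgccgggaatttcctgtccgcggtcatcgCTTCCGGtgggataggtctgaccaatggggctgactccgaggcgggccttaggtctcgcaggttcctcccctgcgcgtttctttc
TFB2M: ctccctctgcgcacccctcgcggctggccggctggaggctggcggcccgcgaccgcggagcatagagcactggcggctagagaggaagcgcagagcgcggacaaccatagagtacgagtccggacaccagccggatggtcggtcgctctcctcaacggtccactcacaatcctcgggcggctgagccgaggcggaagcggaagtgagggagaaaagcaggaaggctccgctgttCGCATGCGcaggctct
POLRMT: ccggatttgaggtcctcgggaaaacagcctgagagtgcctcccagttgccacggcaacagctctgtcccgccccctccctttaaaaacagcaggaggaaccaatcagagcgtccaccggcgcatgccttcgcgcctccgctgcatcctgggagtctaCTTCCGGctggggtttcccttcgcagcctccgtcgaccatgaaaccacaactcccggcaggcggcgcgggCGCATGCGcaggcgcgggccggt
In these promoters the NRF1 core begins 131 bases before the start of TFB1M, 16 before that of TFB2M and 23 before that of POLRMT. The ETS core begins 85 bases before the start of TFB1M and 93 before that of POLRMT, and the motifs do not overlap. The estrogen-related receptor element TCAAGGTCA was searched too, and each motif on both strands, from 250 bases before to 50 bases after the start. Of 35116 such promoters 2.02% hold the NRF1 core, 10.3% the ETS core and 0.353% the receptor element. Among the 8 members with an entry, the NRF1 core is in the 3 shown, the ETS core in TFB1M, POLRMT and GABPA, and the receptor element in none; NRF1 and TWNK have no entry. A match is a description of the letters.

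Over all genes with a promoter entry and a mean rlog of 8 or more, the 388 with an NRF1 core were called higher in 35.8% and lower in 40.5% of cases in KD, beside 35.9% and 39.7% of all 7926. In OE the shares were 18.8% and 34.3%, beside 24.3% and 32.6%. For the 1918 genes with the ETS core they were 31.9% and 41.8% in KD and 18.0% and 35.6% in OE. The median difference of the genes with an NRF1 core was -0.015 in KD and -0.020 in OE, against -0.0087 and -0.014 for all 7926. For the genes with the ETS core it was -0.018 in KD and -0.026 in OE.

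TFAM (ENSG00000108064, chromosome 10 from 58385345 to 58399220, plus strand), which encodes the packaging and initiation factor, was at 11.67, 11.73 and 11.73 in the parental libraries, at 11.59, 11.51 and 11.52 in KD and at 11.67, 11.68 and 11.63 in OE. The KD libraries lay below all others, and OE overlapped PAR. TFAM fell by 0.17 in KD (standard error 0.023, limma adjusted p = 1.2e-07), and the OE difference was -0.047 (95% confidence interval -0.093 to -0.0014, adjusted p = 0.108 from limma). Without PAR replicate 1 the OE difference was -0.067 and called (adjusted p = 0.0383 from limma), as it was with library medians subtracted (-0.065, adjusted p = 0.0203), while with quantile normalization TFAM in OE against parental differed by -0.026 (adjusted p = 0.443). TFAM has 2 annotated pseudogenes.

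TFB1M (ENSG00000029639, chromosome 6 from 155256134 to 155314493, minus strand) encodes the methyltransferase that modifies the small mitochondrial ribosomal RNA and is related to the initiation factor TFB2M. Its rlog value was 11.07, 11.03 and 11.01 in the parental libraries, 11.37, 11.32 and 11.36 in KD and 11.16, 11.16 and 11.11 in OE. The groups were fully apart, with KD highest, OE between and PAR lowest, the reverse of PPARGC1B. TFB1M was higher by 0.31 in KD (standard error 0.023, limma adjusted p = 1.6e-13) and by 0.10 in OE (limma adjusted p = 4.3e-04). Its value is uncertain, since other annotated genes cover 38.7% of its exons: TIAM2 covers 30.7% on the opposite strand and a noncoding RNA 14.4% on its own strand, and the library kit does not mark strand. TIAM2 itself was higher by 0.24 in KD (adjusted p = 1.2e-10 from limma) and by 0.057 in OE (adjusted p = 0.0521 from limma), and the part of TIAM2 reads in the TFB1M value was not tested.

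TFB2M (ENSG00000162851, chromosome 1 from 246540561 to 246566261, minus strand) shares no exonic base with another gene. It was at 11.82, 11.81 and 11.82 in the parental libraries, at 11.59, 11.62 and 11.61 in KD and at 11.69, 11.74 and 11.68 in OE. As with PPARGC1B, PAR was highest, OE between and KD lowest, with no overlap. TFB2M fell by 0.21 in KD (standard error 0.019, limma adjusted p = 4.1e-11) and by 0.11 in OE (limma adjusted p = 1.5e-05).

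POLRMT (ENSG00000099821, chromosome 19 from 617221 to 633537, minus strand), which encodes the mitochondrial RNA polymerase, moved less. It was at 11.79, 11.75 and 11.85 in the parental libraries, at 11.65, 11.70 and 11.75 in KD and at 11.69, 11.74 and 11.80 in OE. The KD libraries lay just below the parental ones, and OE overlapped both. The difference was -0.097 in KD (standard error 0.025, limma adjusted p = 0.0016) and -0.054 in OE (95% confidence interval -0.11 to -0.0016, adjusted p = 0.107 from limma). In OE it was -0.074 and called without PAR replicate 2 (adjusted p = 0.0404 from limma) and -0.081 without OE replicate 3 (0.0144). It was also called in OE with library medians subtracted (-0.072, adjusted p = 0.0315 from limma) and with the replicate number as a block (-0.054, adjusted p = 0.0313). With 20-Mb block medians subtracted POLRMT in OE against parental differed by -0.017 (adjusted p = 0.571 from limma), and without PAR replicate 3 and without OE replicate 1 by -0.028 and -0.026. POLRMT has 1 annotated pseudogene.

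Taken within each library, TFB1M minus TFB2M was -0.75, -0.78 and -0.82 in the parental libraries, -0.22, -0.30 and -0.25 in KD and -0.54, -0.58 and -0.57 in OE. This difference between the paired genes was thus 0.52 closer to 0 in KD than in PAR and 0.22 closer in OE, with no overlap between groups. TFB1M minus TFAM was -0.67 ± 0.067 (SD, n = 3) in PAR, -0.19 ± 0.034 in KD and -0.52 ± 0.0086 in OE. For both differences each pair of groups gave an exact permutation p of 0.1, two-sided.

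**Figure D3:**
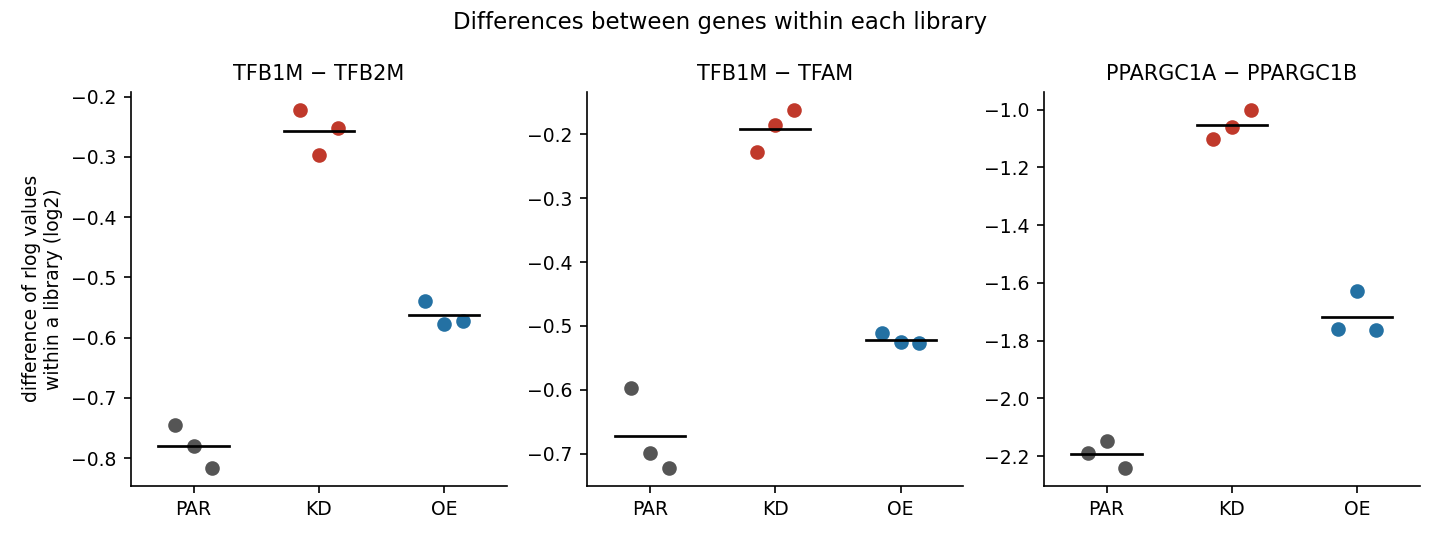
Difference of rlog values (log2) between the named genes within each library, with 3 libraries each of PAR, KD and OE as dots and the group mean as a bar; the axes do not start at 0. In each of the 3 panels the PAR libraries are lowest, OE lies between and KD is highest, and for TFB1M minus TFB2M the means are -0.78, -0.56 and -0.26.

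Of the replication genes, TWNK (ENSG00000107815, chromosome 10 from 100987367 to 100994403, plus strand) was lower in both comparisons. It was at 12.01, 11.98 and 11.99 in the parental libraries, at 11.84, 11.88 and 11.88 in KD and at 11.92, 11.91 and 11.94 in OE. The groups did not overlap, with OE between PAR and KD. The difference was -0.12 in KD (standard error 0.019, limma adjusted p = 1.1e-06) and -0.066 in OE (limma adjusted p = 0.0049). With quantile normalization the OE difference was -0.043 and not called (adjusted p = 0.0684 from limma). OE was above KD by 0.056 (adjusted p = 0.013 from limma), a call that was lost without KD replicate 1 (0.042, adjusted p = 0.0936) and without OE replicate 3 (0.047, adjusted p = 0.0572). TWNK shares a small part of its exonic bases with MRPL43 on the opposite strand, which differed by -0.076 in OE (adjusted p = 0.0142 from limma) and by 0.018 in KD (adjusted p = 0.560).

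POLG (ENSG00000140521, chromosome 15 from 89305198 to 89334861, minus strand), which encodes the catalytic subunit of polymerase gamma, had its largest difference between OE and KD. It was at 11.28, 11.21 and 11.25 in the parental libraries, at 11.27, 11.34 and 11.34 in KD and at 11.18, 11.18 and 11.22 in OE. PAR overlapped both other groups, and every OE library was below every KD library. OE was below KD by a log2 difference of -0.13 (standard error 0.023, limma adjusted p = 2.4e-05). The KD difference from parental was 0.072 (adjusted p = 0.0087 from limma), and it was not called without PAR replicate 2 (0.052, adjusted p = 0.0835), without KD replicate 3 (0.059, adjusted p = 0.0556) or after subtraction of 20-Mb block medians (0.014, adjusted p = 0.636). The OE difference was -0.055 (adjusted p = 0.0652 from limma), and it was called without PAR replicate 2 (-0.075, adjusted p = 0.0209), without OE replicate 3 (-0.068, adjusted p = 0.0371), among genes with a mean rlog of 5 or more (0.0352), with library medians subtracted (-0.073, 0.0166) and with 20-Mb block medians subtracted (-0.080, 0.0070). With quantile normalization POLG in OE against parental differed by -0.028 (adjusted p = 0.393 from limma). POLG shares 15.0% of its exonic bases with other genes, among them FANCI on the opposite strand, which differed by -0.064 in OE (adjusted p = 0.0030 from limma) and by -0.024 in KD (adjusted p = 0.233). The part of these partners in the values of TWNK and POLG was not tested.

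The neighbours of the members on the chromosomes shared the direction of some members and not of others. Over the other genes of the same 20-Mb block, the median KD difference lay between -0.011 and 0.064 for all 10 members, and the median OE difference between -0.036 and 0.015. Within 1 Mb, the median in KD was opposite in sign to the member for PPARGC1B (0.068), TFB2M (0.097), TWNK (0.10), NRF1 (0.012) and TFB1M (-0.12, from 3 genes). It had the sign of the member for ESRRA (-0.0069), TFAM (-0.0051), POLRMT (-0.044), POLG (0.030) and GABPA (0.066, from 4 genes). In OE it was opposite in sign for NRF1 (-0.019), TFB1M (-0.032), TFB2M (0.018) and TWNK (0.042), and had the sign of the member for PPARGC1B (-0.0029), ESRRA (-0.065), TFAM (-0.0046), POLRMT (-0.054), POLG (-0.039) and GABPA (0.082). The median was as large as the difference of the gene itself, or larger, for POLRMT and NRF1 in OE and for GABPA in both comparisons, and the part of the neighbourhood in these differences was not tested further.

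Levels were also set per kb of merged exon. Different genes can be compared only roughly in this way, since it counts the exons of all annotated transcripts, expressed or not. Set so, TFB2M was the highest member in the parental libraries, at 10.98 ± 0.0054 (SD, n = 3) on the log2 scale. ESRRA (9.94 ± 0.031) and TWNK (9.94 ± 0.015) came next, and these neighbours overlapped. POLRMT (9.46), TFAM (9.31), TFB1M and GABPA (8.82) followed in an order in which neighbours did not overlap. POLG (8.20) and NRF1 (8.14) overlapped, and PPARGC1B was lowest at 5.77 ± 0.035, near the middle of all genes (percentile 53.1 in the parental libraries), where TFB2M stood at percentile 97.3. In KD, TFB1M (9.31) stood above TFAM (9.14), the reverse of PAR and OE, though TFB1M shares 38.7% of its exonic bases with other genes.

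**Figure D4:**
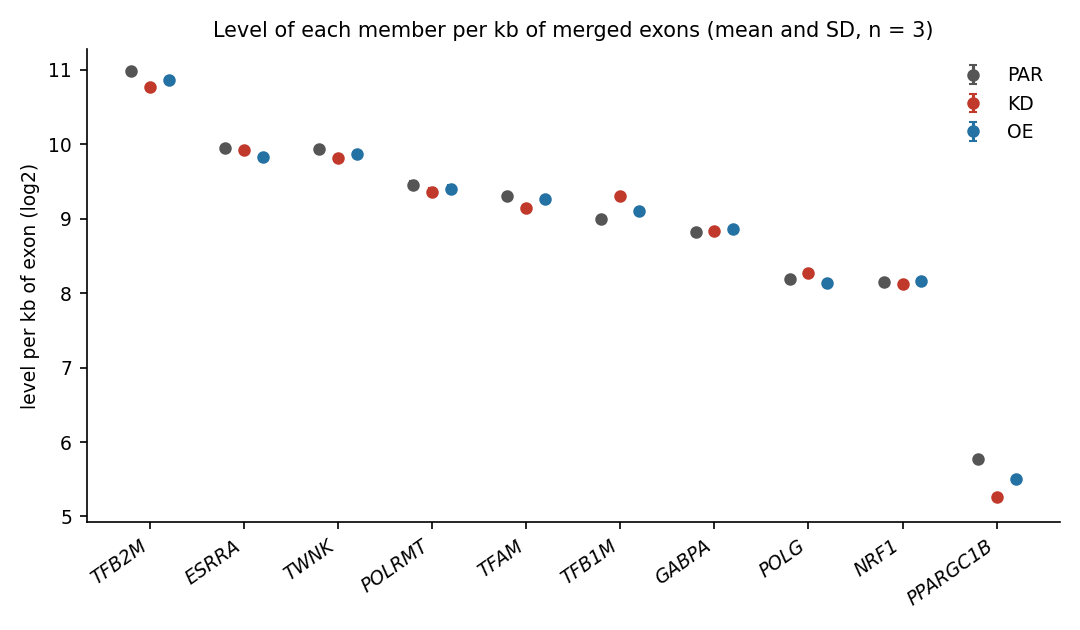
Level of each member per kb of merged exon (log2), mean and SD of 3 libraries in PAR, KD and OE; most SDs are smaller than the dots and the axis does not start at 0. TFB2M is highest, at 10.98 in PAR, and PPARGC1B lowest, at 5.77 in PAR, in all 3 groups.

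The remaining genes of the pathway also moved in both directions, and their counts stand beside the 53.7% of all genes called in KD and 34.8% in OE (75.8% and 56.7% at a mean rlog of 8 or more). Of 15 other regulators of biogenesis 5 were higher and 6 lower in KD, with a median of 0.018, and 3 were higher and 3 lower in OE, with a median of 0.015. Besides PPARGC1A and GABPB2, the largest difference was that of PRKAA2, a catalytic subunit gene of the energy sensor AMPK, which was higher by 0.19 in KD (adjusted p = 2.0e-05 from limma) and 0.36 in OE (adjusted p = 3.7e-10 from limma). GABPB2 differed from parental by -0.084 in OE (adjusted p = 0.0376 from limma), a call lost without PAR replicate 1 (-0.081, adjusted p = 0.0954), PAR replicate 2 (-0.059, 0.218), OE replicate 2 (-0.071, 0.144) or OE replicate 3 (-0.083, 0.0734), and without a variance trend (0.0636).

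Of 18 further genes of mtDNA replication and maintenance 16 had values. In KD, 4 were higher and 9 lower, with a median of -0.099, and in OE 2 were higher and 6 lower, with a median of -0.044. SSBP1, which coats single-stranded mtDNA during replication, fell by 0.15 in KD (adjusted p = 6.3e-10 from limma) and by 0.065 in OE (adjusted p = 0.0013 from limma), where with quantile normalization SSBP1 in OE against parental differed by -0.039. POLG2, the accessory subunit gene of polymerase gamma, differed by 0.024 in KD (adjusted p = 0.354 from limma) and -0.0038 in OE (adjusted p = 0.917 from limma). The nuclease gene EXOG fell from 10.91, 10.89 and 10.89 in PAR to 10.44, 10.41 and 10.41 in KD, by a log2 difference of -0.48 (standard error 0.023, limma adjusted p = 3.4e-18), and differed by -0.037 in OE (adjusted p = 0.233 from limma). With 20-Mb block medians subtracted the difference of EXOG in KD against parental was -0.25. The mitochondrial pyrimidine carrier gene SLC25A33 fell by 0.26 in KD (adjusted p = 1.6e-09 from limma) and 0.15 in OE (adjusted p = 3.8e-05 from limma). MPV17, an inner membrane protein gene needed for mtDNA upkeep, was higher by 0.26 in KD (adjusted p = 4.5e-13 from limma) and by 0.060 in OE (adjusted p = 0.0155 from limma). The OE call was lost without PAR replicate 1 (0.047, adjusted p = 0.101), OE replicate 1 (0.052, 0.0710) or OE replicate 2 (0.050, 0.0895), with library medians subtracted (0.042, 0.0952) and without a variance trend (0.0686). MGME1 and RNASEH1 were not analysed here.

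Among 6 other mtDNA transcription genes, 1 was higher and 3 lower in KD, with a median of -0.045, and 1 was higher in OE, with a median of 8.2e-04. TEFM, the elongation factor gene, fell by 0.13 in KD (adjusted p = 7.8e-04 from limma) and differed by -0.012 in OE (adjusted p = 0.818 from limma). MTERF3, which encodes a member of the termination factor family, fell by 0.13 in KD, while MTERF2, of the same family, was higher by 0.20 (adjusted p = 3.6e-05 and 2.8e-05 from limma). MTERF2 was also the gene called in OE (0.12, adjusted p = 0.0116 from limma), a call lost without PAR replicate 2 (0.10, adjusted p = 0.0611) and with quantile normalization (0.092, adjusted p = 0.0600).

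Of 17 genes for processing and stability of mitochondrial RNA 13 had values. In KD, 3 were higher and 8 lower, with a median of -0.16, the lowest of the lists shown, and in OE 2 were higher and 6 lower, with a median of -0.052. TRMT10C, a subunit gene of mitochondrial RNase P, fell by 0.20 in KD, FASTKD2 by a log2 difference of -0.20 and the tRNA 3′-end nuclease gene ELAC2 by -0.20, with adjusted p values of 4.3e-10, 9.7e-10 and 2.4e-11 from limma. LRPPRC, whose product stabilizes mitochondrial messages, was higher by 0.065 in KD (adjusted p = 1.7e-04 from limma) and by 0.10 in OE (adjusted p = 3.4e-07 from limma), and with 20-Mb block medians subtracted LRPPRC in KD against parental by 0.038. PRORP, FASTKD3, FASTKD4 and FASTKD5 were not analysed here.

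Textbook targets of NRF1 or GABP did not move as a body. Of 13 listed 12 had values, of which 5 were higher and 3 lower in KD (median 0.026) and 5 were higher and 1 lower in OE (median 0.018). CYCS, the gene for cytochrome c, fell by 0.33 in KD (adjusted p = 2.6e-17 from limma), though its 42 annotated pseudogenes make its value uncertain. TOMM20, with 4 annotated pseudogenes, was higher by 0.20 in KD and 0.19 in OE (adjusted p = 3.6e-15 and 3.0e-14 from limma). ALAS1, the first enzyme gene of heme synthesis, fell by 0.31 in KD (adjusted p = 1.0e-15 from limma), a difference of -0.041 after subtraction of 20-Mb block medians (adjusted p = 0.0636 from limma), and by 0.18 in OE (adjusted p = 1.3e-09 from limma). ATP5MC1 was not analysed here.

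The 13 messages encoded by mtDNA itself were all called in KD, 8 higher and 5 lower with a median of 0.067, where 75.8% of genes at a mean rlog of 8 or more were called, and in OE 10 were higher and 0 lower with a median of 0.13, beside 56.7%. MT-CO2 (0.42), MT-ND4 (0.30) and MT-ND4L (0.24) had the largest differences in KD. With quantile normalization MT-CO2 in KD against parental differed by 0.27, and MT-ND4 by 0, a value that the method sets for a gene with the same rank in every library. With 20-Mb block medians subtracted MT-ND4 differed by 0.18 and MT-ND4L by 0.12. MT-CO2 was higher by 0.17 in OE, but by 0.024 with quantile normalization and 0.020 with 20-Mb block medians subtracted, neither called, and after the latter MT-ND4 and MT-ND4L in OE were at -0.021 and -0.016.

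**Figure D5:**
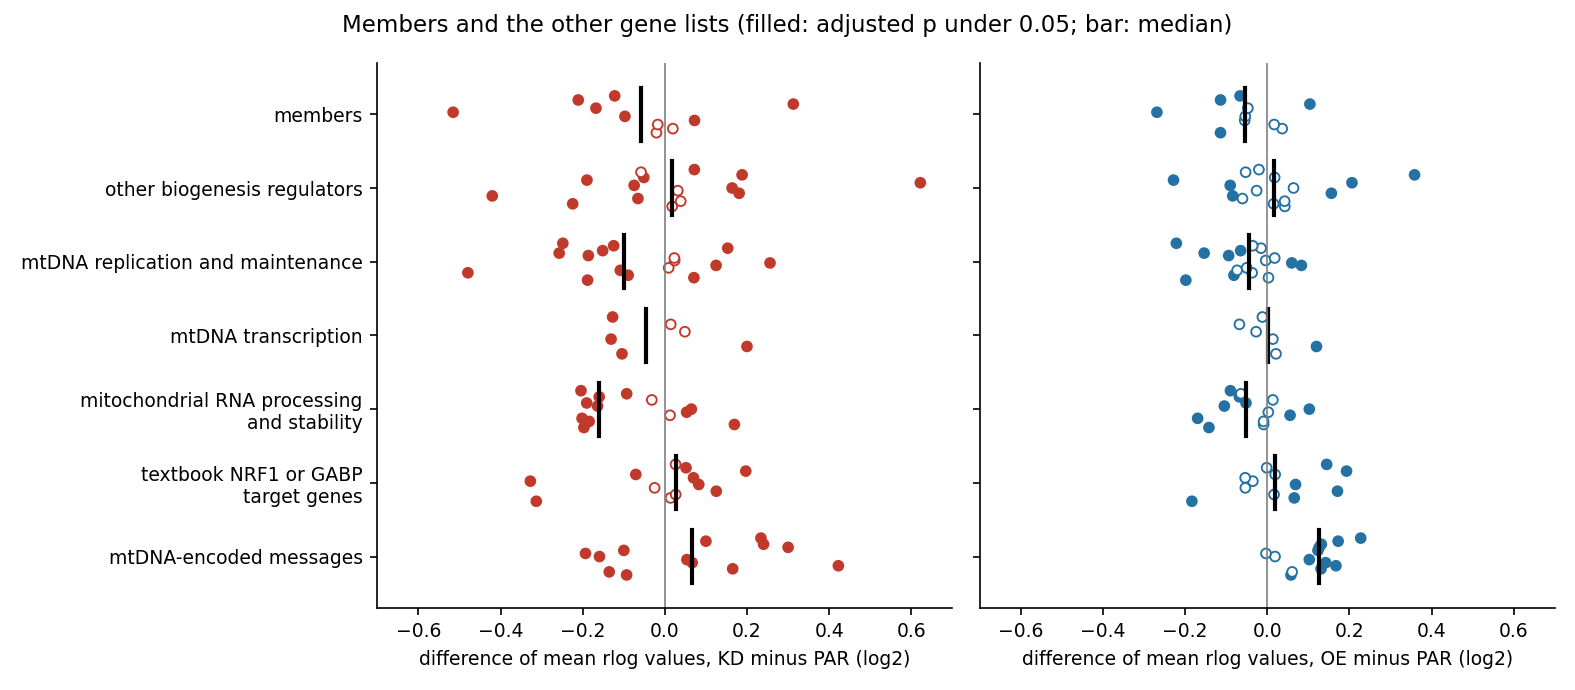
Difference from parental (log2) of each gene in the members and the other lists, KD on the left and OE on the right; filled dots have an adjusted p under 0.05 in limma and the bar is the median of the list. Each list holds genes on both sides of 0 in KD, and the list for mitochondrial RNA processing and stability has the lowest median there, at -0.16.

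Marker genes of other cell types differed between the groups too, with shares called that stand beside the 53.7% of all genes in KD and 34.8% in OE. The summed level of the 9 mesenchymal markers with values, of which VIM was the most abundant, was 16.51, 16.52 and 16.52 (log2) in the parental libraries, 16.92, 16.92 and 16.91 in KD and 16.73, 16.71 and 16.73 in OE, which is the group order of TFB1M and the reverse of that of PPARGC1B, TFB2M and TWNK. Of these genes 4 were called higher and 1 lower in KD, and 3 higher and 1 lower in OE. The lower call in OE, that of TWIST2 (-0.13), was lost without PAR replicate 1 (-0.094, adjusted p = 0.175 in limma), PAR replicate 3 (-0.13, 0.0697) or OE replicate 1 (-0.093, 0.175), and with 20-Mb block medians subtracted (-0.10, 0.0783). PRRX1 had means of 11.70 in PAR, 12.99 in KD and 12.39 in OE, WWTR1 of 14.80, 15.20 and 15.10, and TWIST2 of 7.36, 6.91 and 7.23, whereas COL3A1 and COL1A2 were at 1.16 and 1.35 in PAR.

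The summed level of the 8 neuroblastoma markers, led by ISL1, was 9.96, 9.92 and 9.95 in PAR, 9.85, 9.82 and 9.82 in KD and 9.86, 9.94 and 9.89 in OE. Of these, 1 was called higher and 4 lower in KD, and 0 and 2 in OE. The higher gene was MYCN, whose mean stayed under 3 in all groups. The lower call of CHGB in OE (-0.18) was lost without PAR replicate 1 (-0.11, adjusted p = 0.102 in limma) and with 20-Mb block medians subtracted (-0.061, 0.366). That of CHGB in KD (-0.12) was lost without PAR replicate 1 (-0.060, adjusted p = 0.362 in limma), KD replicate 1 (-0.11, 0.126), KD replicate 2 (-0.14, 0.0511) or KD replicate 3 (-0.12, 0.0774), with 20-Mb block medians subtracted (-0.024, 0.698) and without a variance trend (0.0549). The summed level of 8 epithelial markers, led by KRT18, was 12.55, 12.56 and 12.54 in PAR, 12.55, 12.59 and 12.61 in KD and 12.41, 12.40 and 12.42 in OE. In that list 1 gene was higher and 1 lower in KD, and 1 higher and 3 lower in OE, where CLDN4 fell from a mean of 10.10 to 9.53, and the means of KRT14 were 7.54 in PAR, 6.85 in KD and 7.05 in OE. KRT8 was at 8.70, 9.09 and 9.10, but it has 51 annotated pseudogenes and KRT18 has 68. The 5 blood and endothelial markers, led by PECAM1, summed to 9.53, 9.53 and 9.50 in PAR, to at least 9.95 in every KD library and to 9.21, 9.25 and 9.32 in OE, and of these 2 were called higher in KD and 1 lower in OE. VWF had means of 4.96 in PAR, 5.17 in KD and 5.02 in OE, and PTPRC was at 2.65 in PAR. The part of any of these markers in the differences of the members was not tested.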

How the data were processed

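Total RNA of 9 libraries (3 each of PAR, KD and OE) was sequenced by the authors from TruSeq v2 libraries. They used cutadapt for trimming, HISAT2 for mapping to GRCh38 and featureCounts of Subread for reads per gene, and removed genes with fewer than 10 reads in all. The deposited values are regularized log2 values, which the submitters' notes tie to DESeq2; tool versions, annotation and strand setting are not given in the sources used here. Gene IDs were matched to GENCODE release 44 (22195 of 22290), which gave symbols (18433 with a symbol), positions and merged exon lengths.

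Groups came from the sample titles. All 22290 genes were fitted in limma 3.58.1 (R 4.3.3) with a variance trend, no covariate and all 9 libraries in 1 fit, two-sided, with Benjamini-Hochberg adjustment. The fit was tested on simulated data. Differences within a library were tested by exact permutation in scipy 1.17.1. The per kb level is the rlog value minus the log2 of the exon length in kb. Alternatives were no variance trend, genes at a mean rlog of 5 or more, library medians subtracted, quantile normalization, only the groups compared, the replicate number as a block, 20-Mb block medians subtracted, each library left out, an unadjusted p and a difference over 0.5. All 10 members were described. From each other list the 3 genes with the largest called difference in KD or OE were named, with POLG2, SSBP1, TEFM, LRPPRC, PPARGC1A and PPRC1, and the 3 genes most like the member with the largest difference. GABPB1, and DNASE1, TIAM2 and other genes that share bases with a member or TRAP1, were named after their values were seen. The neuroblastoma marker list is shorter than planned and was cut after its values were seen. The members and lists were chosen with earlier results of these data known.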

Additional observations from a re-analysis of the deposited data

How the results depend on the processing

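Over the differences of the members under the alternative fits, 455 kept direction and call, 6 lost a call, 15 gained one and 4 changed sign. The sign changes were GABPA in KD with 20-Mb block medians subtracted (-0.015) and without PAR replicate 1 (-0.00052), and NRF1 in OE with library medians subtracted (-0.0012) and without OE replicate 3 (-0.0023), none of them called; the largest values were 0.046 for GABPA (without PAR replicate 2) and 0.032 for NRF1 (without OE replicate 2). PPARGC1B, TFB1M and TFB2M kept their calls in all 3 comparisons under every alternative fit, though not where a difference over 0.5 was also required, which only PPARGC1B in KD met. Among the other named genes 934 kept direction and call, 34 lost a call, 1 gained one and 4 changed sign. TRAP1 in OE was -3.9e-05 with library medians subtracted and -0.012 without OE replicate 3, with 0.042 without OE replicate 2, and with 20-Mb block medians subtracted MT-ND4 and MT-ND4L in OE were -0.021 and -0.016, where the subtracted median is that of mtDNA itself. The KD count of members was 6 to 7 and of all genes 11106 to 12030 with single libraries left out, in OE 5 to 8 and 6857 to 7762, and in OE against KD 6 to 8 and 9636 to 10575. The OE count of members was 8 without PAR replicate 2, 8 with library medians subtracted and 8 at an unadjusted p under 0.05. With a difference over 0.5 also required, 1 member and 1110 genes were called in KD, 0 and 200 in OE, and 0 and 793 in OE against KD, counts that the shrinkage of rlog differences lowers. With the replicate number as a replicate block, 7, 6 and 7 members were called in KD, OE and OE against KD. Same-numbered libraries had correlations of -0.071 to 0.14. Between KD and OE these were 0.12, 0.023 and 0.14, beside -0.14 to 0.026 for libraries with different numbers. Same-numbered pairs with PAR had -0.071 to 0.013. Whether the numbers pair the samples was not tested further. No scaling moved the median of all genes by more than 0.018. Depth behind each value cannot be read from rlog values, and the cause of these changes was not tested.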
